A study of Drosophila melanogaster with 2 samples.

Results

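The genes of translation initiation factors, translation elongation factors and aminoacyl-tRNA synthetases were examined for binding of the CG11085 protein in Drosophila melanogaster embryos. Members were the protein-coding genes on the chromosome arms whose symbol begins with eIF or eEF, or is an amino acid abbreviation followed by RS or RS-m, where the suffix m stands for mitochondrial. This rule gave 85 of the 13945 protein-coding genes on the arms, with 44 initiation factor genes, 8 elongation factor genes, 18 synthetase genes without the suffix, called cytosolic below, and 15 mitochondrial synthetase genes. The data come from chromatin immunoprecipitation followed by sequencing (ChIP-seq), with anti-GFP antibody, of whole embryos aged 0 to 24 hours of a strain that carries CG11085 fused to eGFP. CG11085 is a gene of the homeobox class. The study has 1 group, with 2 biological replicates, and the promoter that drives the fusion is not given in the sources used here. Whole embryos mix all tissues, so a site bound in few cells cannot be told apart from a site bound weakly in many. Peak files hold no expression values, so no tissue marker could be checked.

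Initiation factors bring the initiator tRNA, the mRNA and the ribosomal subunits together at the start codon. Elongation factors deliver each charged tRNA to the ribosome and move the ribosome along the mRNA, and aminoacyl-tRNA synthetases load each tRNA with its amino acid. Nearly all growing cells need these genes, and in flies many of them lie beside another gene that is transcribed in the opposite direction. Homeodomain proteins commonly contact short AT-rich sites such as TAATTG, while the promoters of many housekeeping genes of flies carry TATCGATA, the DNA replication-related element to which the factor DREF binds.

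At 7 of the 8 peaks of bound synthetase genes, G+C content within 50 bp of the summit was below 29.7%, called AT-rich here. AspRS (42.6%) was the exception. That value bounds the lowest of 3 G+C classes of the authors' conservative peaks, defined below. That class held 896 of the 2566 such peaks with a signal in each replicate. Of the factor gene peaks, those of eIF5B (27.7%) and the weaker of 2 at eIF1 (25.7%) also fell below it. TATCGATA stood at 2 peaks of factor genes and in 2.41% of all conservative peaks. The sequences below run 50 bp to each side of a peak summit, 5′ to 3′ on the strand of the named member, and come from the RefSeq copy of the dm6 genome. In the windows of eIF2Bbeta, GluProRS, LeuRS-m and AsnRS, capitals mark TAATTG or its reverse complement CAATTA. In those of eEF1gamma and eIF3a, capitals mark TATCGATA. The window of SerRS holds none of the 9 words searched and is shown as a strong AT-rich site without them.
eIF2Bbeta, chrX:2703843-2703943, forward strand: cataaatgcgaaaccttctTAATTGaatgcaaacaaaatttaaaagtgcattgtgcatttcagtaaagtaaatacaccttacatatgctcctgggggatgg
GluProRS, chr3R:23958488-23958588, reverse strand: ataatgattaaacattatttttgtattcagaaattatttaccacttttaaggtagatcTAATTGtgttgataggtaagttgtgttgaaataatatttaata
LeuRS-m, chr3L:4824959-4825059, forward strand: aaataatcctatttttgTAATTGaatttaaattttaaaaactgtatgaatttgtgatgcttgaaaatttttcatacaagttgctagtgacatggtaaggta
AsnRS, chr2L:19131996-19132096, reverse strand: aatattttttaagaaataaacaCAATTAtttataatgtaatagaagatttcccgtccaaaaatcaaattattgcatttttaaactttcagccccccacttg
SerRS, chr2L:3037366-3037466, reverse strand: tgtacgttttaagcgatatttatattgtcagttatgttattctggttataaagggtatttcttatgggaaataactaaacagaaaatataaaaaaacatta
eEF1gamma, chr3R:29220089-29220189, forward strand: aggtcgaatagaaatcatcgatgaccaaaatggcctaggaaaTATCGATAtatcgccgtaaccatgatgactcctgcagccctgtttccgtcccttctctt
eIF3a, chr3R:4433908-4434008, reverse strand: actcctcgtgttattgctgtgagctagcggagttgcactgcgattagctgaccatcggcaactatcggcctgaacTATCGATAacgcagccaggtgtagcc

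A gene was counted as bound when the summit of a peak in the authors' conservative list lay within 1 kb of one of its transcription start sites (TSSs). That list holds the peaks that both replicates ranked alike, by the irreproducible discovery rate (IDR). It had 2610 peaks on the arms, and the lists of replicates 1 and 2 alone had 2006 and 1750. By this rule 18 of the 85 members were bound, or 21.2% (95% Wilson interval 13.8 to 31.0, counting error only). Of all protein-coding genes on the arms, 15.1% were bound, which lies inside that interval. The larger list over both replicates reached 19 members (22.4%) against 17.3% of all genes. The list of replicate 1 reached 17 members (20%) against 13.3%, and that of replicate 2 reached 13 (15.3%) against 11.2%. The members' share was thus above that of all genes in each of the 4 lists. The lists share reads and no test was run, so this is a description.

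The bound share ranged from 6.67% to 38.9% over the 4 classes. Of the 18 cytosolic synthetase genes 7 were bound, or 38.9% (95% Wilson interval 20.3 to 61.4). Replicate 1 alone gave 5 of them (27.8%) and replicate 2 alone gave 4 (22.2%). Of the 8 elongation factor genes 3 were bound (37.5%, interval 13.7 to 69.4), where replicate 1 alone gave 4 and replicate 2 alone 2. The 44 initiation factor genes had 7 bound (15.9%, interval 7.93 to 29.4), close to the share of all genes, where replicate 1 alone gave 7 and replicate 2 alone 6. Of the 15 mitochondrial synthetase genes only LeuRS-m was bound (6.67%, interval 1.19 to 29.8), and it was in both replicate lists. The intervals of the 4 classes overlap, and the differences between classes were not tested.

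**Figure D1:**
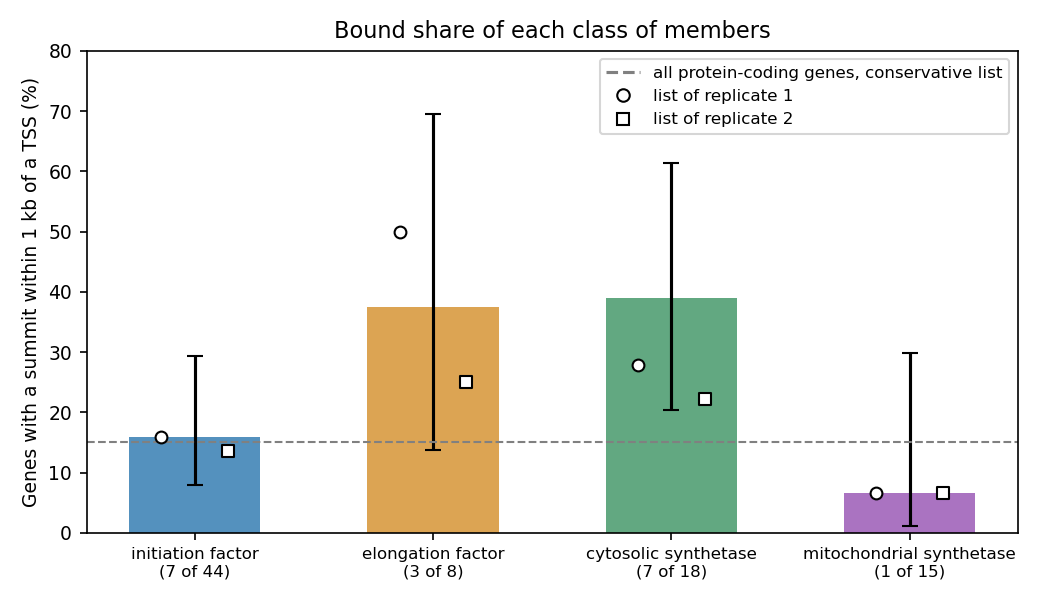
Percentage of bound genes in each class by the conservative list (bars, with 95% Wilson intervals), and with the lists of replicate 1 (circles) and replicate 2 (squares). Cytosolic synthetase genes (38.9%) and elongation factor genes (37.5%) stood above the dashed line at 15.1%, the share of all protein-coding genes. Initiation factor genes (15.9%) lay on it and mitochondrial synthetase genes (6.67%) below. The intervals of the elongation factor (13.7 to 69.4), initiation factor and mitochondrial synthetase genes include that share.

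Among the genes that recruit and regulate the initiator tRNA, eIF2Bbeta stood at the second strongest conservative peak on the arms. It encodes a subunit of eIF2B, the exchange factor that reloads eIF2 with GTP. The replicates gave this peak (X, 2703727 to 2704048) signals of 1227 and 846, and the pooled reads 2058. Measured from eIF2Bbeta the summit was 678 bp upstream, but from Ugalt, the gene on the other side, only 41 bp. The other 4 eIF2B genes were not bound. Neither were the 5 genes of the eIF2 group, among them the 3 eIF2 subunits eIF2alpha, eIF2beta and eIF2gamma. The strongest ranked region of that group, at eIF2A, reached 78.5 in signal and 1.02 in −log10 global IDR, below the lowest value of 2.00 in the conservative list. The ranked comparison of the replicates held no region within 1 kb of the TSS of eIF2alpha.

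Of the eIF3 complex, the scaffold that joins the small subunit and the mRNA, 3 of 16 genes were bound. The peak of eIF3c, at 2R 17665501 to 17665840, had signals of 134 and 56.5 in replicates 1 and 2, with its summit 7 bp upstream of the TSS. The peak of eIF3a, at 3R 4433788 to 4434127, had 93.0 and 27.1, with the summit 63 bp upstream of eIF3a and 7 bp upstream of the divergent gene CG1074. That of eIF3h, at 2L 5052772 to 5052859, had 106 and 30.4, with the summit 30 bp upstream of eIF3h and 33 bp upstream of senju. All 3 summits lay within 100 bp of the start site, and in all 3 replicate 1 was more than 2 times as high as replicate 2. The other 13 eIF3 genes, including eIF3b, eIF3d1 and eIF3i, were not bound, and the highest signal of a ranked region among them was 67.0 at eIF3f1.

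The initiation factor genes that act at start-site selection and subunit joining had 3 bound members. eIF1, which guards start codon choice, had 2 conservative peaks between it and RpL28, a ribosomal protein gene. The stronger, at 3L 3222904 to 3223084, had signals of 138 and 95.2 in replicates 1 and 2 and 242 in the pooled reads, with the summit 347 bp upstream of eIF1 but 34 bp upstream of RpL28. The weaker, 89 bp upstream of eIF1, had a pooled signal of 32.9 and was matched to the same region of each replicate, so it has no replicate values of its own. eIF5B, the GTPase that joins the ribosomal subunits, had a peak at 3L 3460497 to 3460836 with 83.4 and 75.4, the most even pair among the members. eIF6, which keeps the large subunit from joining too early, had the second strongest peak of the set, at 2R 23850258 to 23850541, with 783 in replicate 1 and 476 in replicate 2. Its summit lay 110 bp upstream of eIF6, within an intron of the neighbouring gene ytr. eIF1A and eIF5 were not bound.

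None of the 13 genes of the eIF4 group, whose products bind the mRNA cap and unwind the mRNA, was bound by the conservative list, nor by any of the other 3 lists. A count of 0 of 13 allows a share of up to 22.8% (95% Wilson interval). For 2 of them, however, the ranked file held a region at or above the lowest score of the conservative list that is not in that list. eIF4EHP, a cap-binding repressor of translation, had a region at 3R 24109035 to 24109358 whose signal was 618 (344 and 281 in the replicates) and whose −log10 global IDR was 5, centred 227 bp upstream of the start site. eIF4A, the RNA helicase, had a region at 2L 5981504 to 5981843 whose signal was 80.8 (60.9 and 27.0) and whose −log10 global IDR was 2.14, centred 90 bp upstream. On the arms 2695 ranked regions reached that score, and 85 of them were not in the conservative list. The deposited file lists name an input file for the thresholded lists that they do not name for the ranked files, and what it holds is not given in the sources used here. With these 85 regions included, 20 members were bound (15.4% of all genes). eIF4EHP also had a conservative peak inside the gene, 9783 bp downstream of the TSS, with a signal of 227. The cap-binding protein gene eIF4E1 and the scaffold gene eIF4G1 had no ranked region within 1 kb of a TSS.

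**Figure D2:**
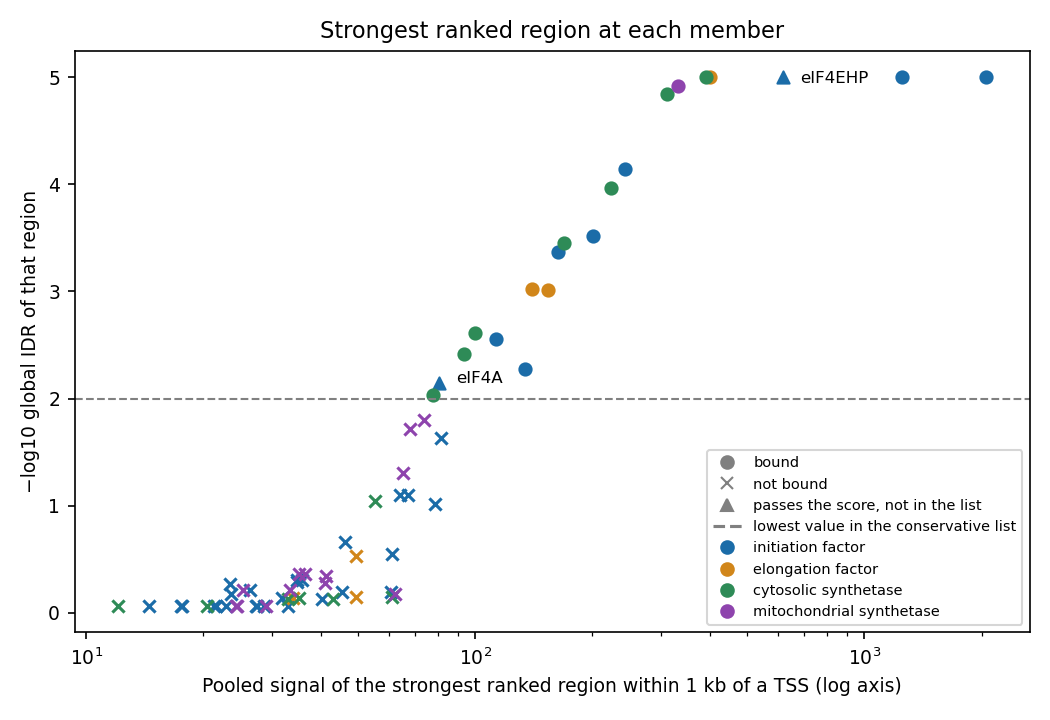
Pooled signal (log axis) against −log10 global IDR of the strongest ranked region within 1 kb of a TSS, 1 symbol per member that has such a region; the dashed line at 2.00 is the lowest value in the conservative list. Bound members (circles) and members below the threshold (crosses) form 1 rising band, and eIF4EHP (618) and eIF4A (80.8), drawn as triangles, lie above the line but are not in the list.

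Among the elongation factor genes, eEF1gamma, eEF1alpha1 and eEF5 were bound, each with a summit within 50 bp of its TSS. eEF1gamma encodes a subunit of the exchange complex for eEF1alpha. Its peak, at 3R 29220058 to 29220228, had signals of 257 and 135 in replicates 1 and 2, centred 33 bp upstream of the start site, with no other protein-coding start site within 1 kb. eEF1alpha1, which carries charged tRNAs to the ribosome, had 128 and 39.0 at 2R 11891920 to 11892259, 32 bp upstream of its nearest TSS, and was not in the list of replicate 2. eEF5, the counterpart of mammalian eIF5A, had 77.7 and 53.5 at 2R 24057640 to 24057979, 12 bp downstream. eEF2, the translocation factor, was not in the conservative list. It was reached by the larger list, where the signal was 106 and the summit 17 bp downstream, and by the list of replicate 1, where they were 74.3 and 22 bp upstream. The ranked comparison of the replicates held no region there. The paralog eEF1alpha2 was not bound in any of the 4 lists.

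The 7 bound cytosolic synthetase genes were led in signal by GluProRS and SerRS. GluProRS, which encodes a fused glutamyl- and prolyl-tRNA synthetase, had signals of 217 and 178 in replicates 1 and 2 at 3R 23958453 to 23958651, with the summit between it and AP-1sigma, 147 and 113 bp upstream of the respective TSSs. SerRS had 177 and 143 at 2L 3037246 to 3037585, 13 bp upstream. Its TSS and that of the divergent gene CG17260 are 8 bp apart. IleRS had 115 and 97.0 at 3L 22288320 to 22288659, 175 bp upstream, and ThrRS had 94.4 and 71.0 at 2L 12103389 to 12103728, 192 bp upstream. These 4 genes were bound in all 4 lists. The other 3 were weaker and each missed a replicate list. MetRS had 63.2 and 39.1 and AsnRS 55.6 and 35.4, and neither was in either replicate list. AspRS had 58.8 and 25.9 and was missing from that of replicate 2. AspRS had the −log10 global IDR nearest to the threshold among the bound members, at 2.03. Of the 11 unbound genes, ArgRS, CysRS, GlyRS and TrpRS had no ranked region within 1 kb of a TSS.

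Of the mitochondrial synthetase genes, LeuRS-m was bound by position only at a distance. Its peak at 3L 4824914 to 4825086 had signals of 176 and 151, and the summit lay 844 bp upstream of LeuRS-m, in an intron of Dhc64C, the dynein heavy chain gene. It is the member nearest to the 1 kb limit from inside. Just outside it, conservative summits lay 1037 bp from AlaRS (signal 131) and 1098 bp from eIF4G2 (93.3). The unbound mitochondrial genes with the highest ranked signals were ProRS-m (73.8, −log10 global IDR 1.80), CysRS-m (68.0, 1.72) and SerRS-m (65.2, 1.30), followed by ArgRS-m, whose −log10 global IDR was 0.173. All were below the threshold.

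**Figure D3:**
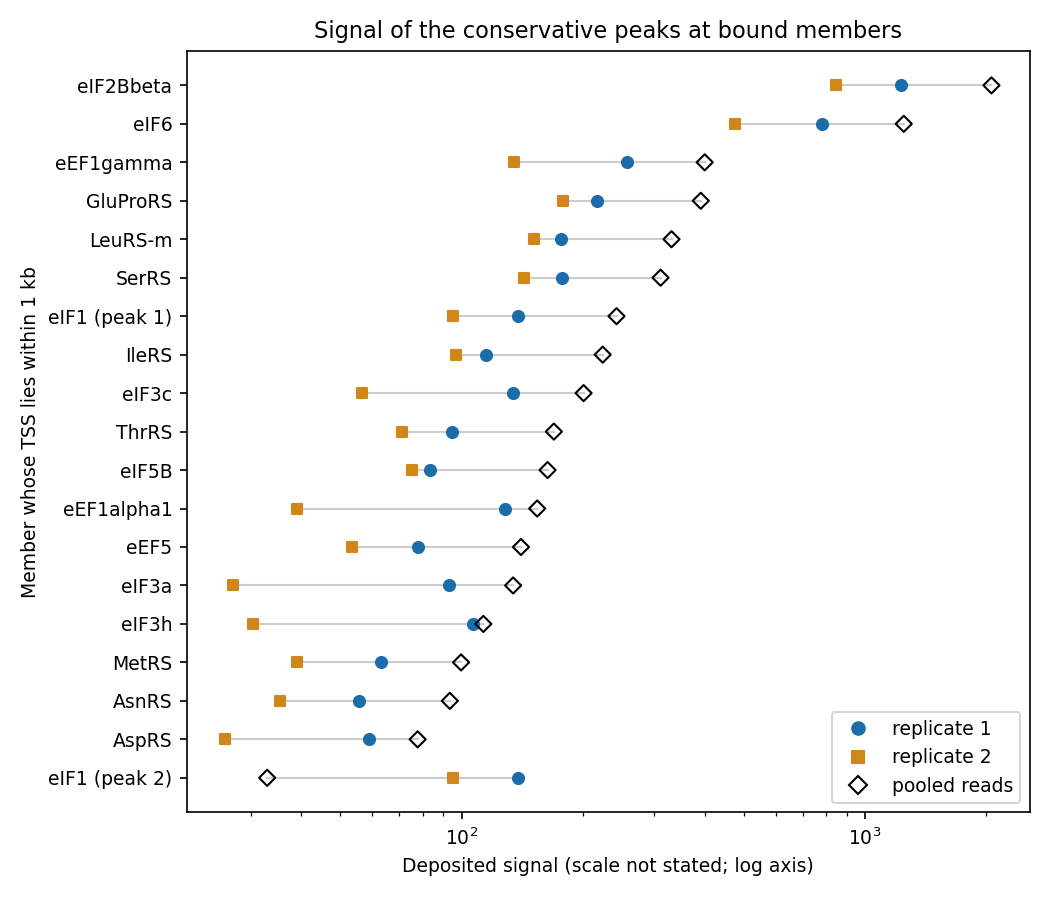
Deposited signal (log axis) of the 19 conservative peaks at the 18 bound members, in replicate 1 (circles), replicate 2 (squares) and the pooled reads (open diamonds). Replicate 1 lies to the right of replicate 2 at all 19 peaks, narrowly at eIF5B (83.4 and 75.4) and widely at eIF3h (106 and 30.4); the weaker peak of eIF1 shares its replicate values with the stronger.

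The 19 member peaks were somewhat stronger than the list as a whole, and the peaks with the widest gap between replicates were those of factor genes. The median pooled signal was 169 (quartiles 124 and 321), against 124 (91.8 and 184) for all conservative peaks on the arms. Of the 19, 14 were above that median. Member peaks lie within 1 kb of a TSS by rule, as do 1622 of the 2610 conservative peaks, so the sets are not alike. The signal was higher in replicate 1 at all 19 peaks, where the 2 eIF1 peaks share 1 pair of replicate values. It was also higher at 2342 of the 2566 conservative peaks with a value in each replicate's own file. The ratio of replicate 1 to replicate 2 had a median of 1.45 at member peaks and 1.51 at all peaks. It was 3.50 at eIF3h, 3.43 at eIF3a and 3.27 at eEF1alpha1, above the upper quartile of all peaks of 1.85. Of the 18 bound members 13 were also in the other 3 lists, while eIF3a, eEF1alpha1, AspRS, AsnRS and MetRS were not in that of replicate 2.

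Summits lay just upstream of the member's start site. The median position was −89 bp, 18 of the 19 summits were upstream of the nearest TSS of the member, and 16 lay within 200 bp of it. For all conservative peaks within 1 kb of a protein-coding TSS the median was −101 bp. That median was measured from the nearest TSS of any protein-coding gene, so it is not a like measure. Summits at cytosolic synthetase genes ranged from 192 to 13 bp upstream, and those at elongation factor genes from 33 bp upstream to 12 bp downstream. By annotation, 10 of the 18 bound members had a summit outside every protein-coding gene. The summits of eIF3h and eEF5 lay in their own 5′ UTRs, and that of AspRS in the 5′ UTRs of both AspRS and Nmda1. Those of eIF5B and eEF1alpha1 lay in introns of their own longer transcripts.

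**Figure D4:**
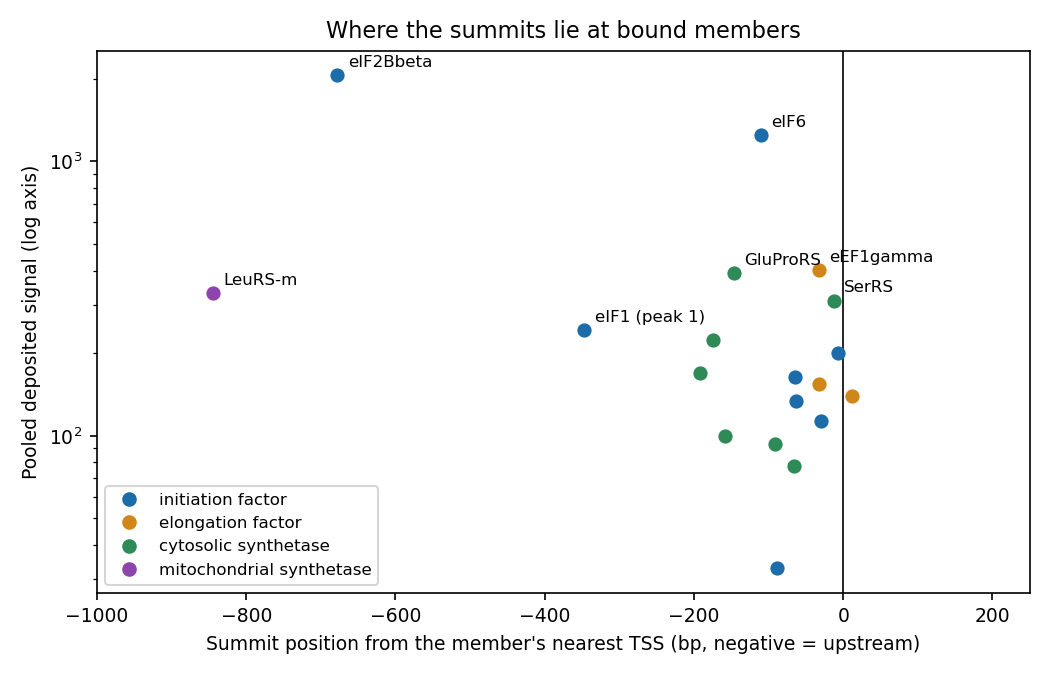
Position of each summit from the nearest TSS of the member (bp, negative upstream) against pooled signal (log axis), coloured by class. Most summits crowd into the 200 bp upstream of the TSS, while those of LeuRS-m (−844), eIF2Bbeta (−678) and the stronger eIF1 peak (−347) lie further away.

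Most bound members shared their promoter region with another gene. For 16 of the 18 the summit also lay within 1 kb of another protein-coding TSS, and for all bound genes this held for 65.4% (1380 of 2109). In 7 of the 18, eIF2Bbeta, eIF3a, GluProRS, MetRS, SerRS, AspRS and LeuRS-m, the other gene's TSS was the nearer one. The data do not tell which gene of such a pair a peak belongs to. The partners include genes outside translation, such as Hem at IleRS, which acts in actin assembly, DCTN6-p27 at AsnRS, a dynactin subunit gene, and CCHa1-R at eIF3c, a neuropeptide receptor gene.

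The share of genes with a divergent neighbour was higher among members than among other genes, with no test of the difference. A divergent protein-coding TSS within 1 kb was present at 49 of the 85 members (57.7%, 95% Wilson interval 47.0 to 67.6) and at 36.1% of the other protein-coding genes. Among genes with such a neighbour, 16 of 49 members (32.7%, interval 21.2 to 46.6) and 26.7% of the other genes were bound. Among genes without one, 2 of 36 members (5.56%, interval 1.54 to 18.1), eIF6 and eEF1gamma, and 8.55% of the others were bound. The neighbour was counted at any TSS of a gene, not only at the bound one. For eEF1alpha1 and AspRS the divergent genes, ERp60 and Lfg, had no TSS within 1 kb of the summit. With and without such a neighbour, the interval of the members' share included the share of the other genes. The part that divergent promoters play in the members' share was not tested.

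The sequence windows differed between synthetase and factor genes, a pattern chosen for description after its values were seen. The G+C content within 50 bp of the summit had a median of 34.7% over member peaks and 33.7% over all conservative peaks. At the 8 synthetase peaks the median was 25.2%, with AspRS highest at 42.6% and GluProRS lowest at 20.8%. At the 11 factor peaks the median was 45.5%, with eIF3a and the stronger eIF1 peak highest at 53.5% and the weaker eIF1 peak lowest at 25.7%. TAATTG, searched as written and as CAATTA, stood in 6 of the 19 windows (31.6%, 95% Wilson interval 15.4 to 54.0), those shown above and those of MetRS and the weaker eIF1 peak. It stood in 11% of all conservative peaks and in 10.5% of the other conservative peaks within 1 kb of a TSS. For windows of the same length at the 5′-most TSS of each protein-coding gene the share was 5.44%. For such windows centred 100 bp upstream of that TSS the share was 10.5%. TATCGATA, its own reverse complement, stood at eEF1gamma and eIF3a (10.5%, 95% Wilson interval 2.94 to 31.4). Its share was 2.41% of all conservative peaks and 3.68% of the other conservative peaks within 1 kb of a TSS. In TSS windows it was 5.56%, and in the windows centred upstream 2.62%. The shorter ATCGAT, which TATCGATA contains, stood in 4 windows, also at eIF5B and AspRS (21.1%, 95% Wilson interval 8.51 to 43.3). Its share was 6.32% of all conservative peaks and 8.73% of the others within 1 kb of a TSS. In TSS windows it was 13.1%, and in the windows centred upstream 7.97%. GGTCACAC, the core of a common fly promoter motif, stood only at eEF1alpha1 (0.996% of all conservative peaks, 5.59% of TSS windows and 1.39% of the windows centred upstream). TAATTA stood in 1 window and GAGAG in 1, against 8.66% and 10.1% of all conservative peaks. None of the 19 windows held CACGTG (0.843% of all conservative peaks), CAGCTG (4.44%) or CAGGTAG (0.307%). Each word was searched on both strands. A word is a match of letters, not a shown site of binding.

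**Figure D5:**
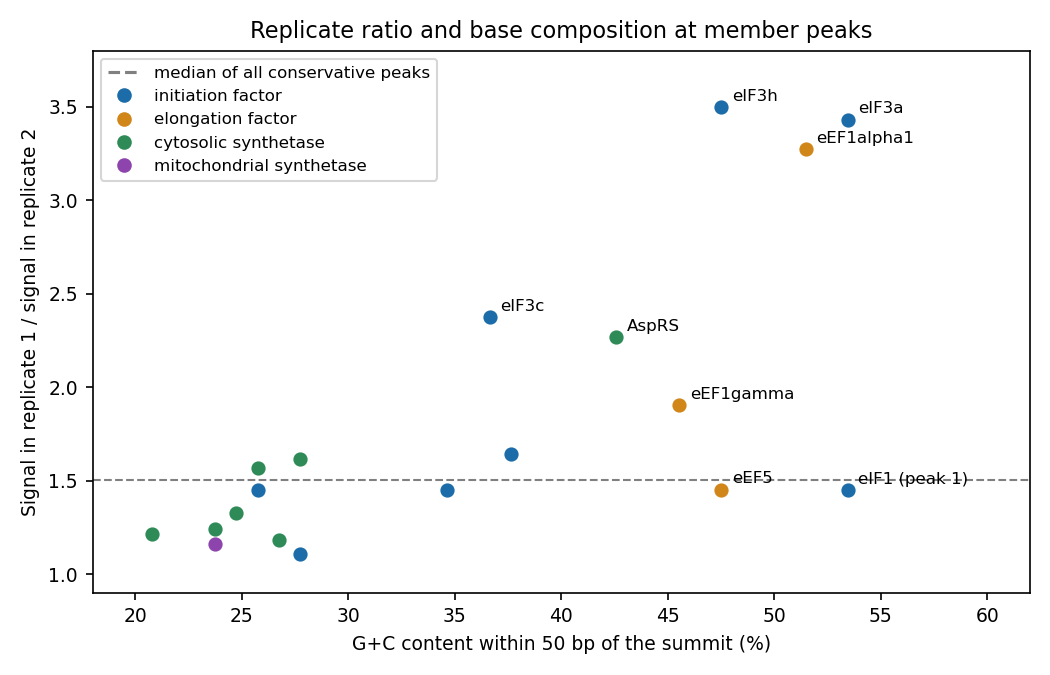
G+C content within 50 bp of the summit (%) against the signal in replicate 1 divided by that in replicate 2, 1 point per member peak, coloured by class; the dashed line at 1.51 is the median of all conservative peaks. Peaks under 30% lie near or below the line, and eIF3h (3.50), eIF3a (3.43) and eEF1alpha1 (3.27), all above 45%, lie highest. The stronger eIF1 peak (1.45) and eEF5 (1.45), also above 45%, lie below the line.

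The replicate ratio and base composition varied together among the member peaks. Spearman's rho between G+C content and the ratio of replicate 1 to replicate 2 was 0.707 over the 19 peaks, and 0.698 over the 18 without the weaker eIF1 peak. Over the 2566 conservative peaks with both values it was 0.149. The peaks share the same 2 libraries, so no p-value is given. Member peaks in the lowest of 3 G+C classes, divided at 29.7% and 39.6%, had a median ratio of 1.24 (9 peaks), and those in the highest class 2.27 (7 peaks). For the 2566 conservative peaks these medians were 1.44 (896 peaks) and 1.65 (829 peaks). The share of base composition or of library preparation in this gap was not tested.

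Other genes of translation were bound mainly among the release, ribosome rescue and regulator genes. In a list of 33 such genes that are not members, 7 were bound (15.1% of all genes were). Of 5 release, rescue and recycling genes 3 were bound: eRF3, with signals of 97.3 and 33.9 in replicates 1 and 2, and the rescue factor genes pelo (63.5 and 62.3) and HBS1 (65.6 and 39.2). Of 14 regulator genes 4 were bound. These were Thor, the 4E-BP gene (70.0 and 30.2), mxt (58.1 and 45.7), the growth kinase gene mTor (44.8 and 71.0) and Dhps, the enzyme that modifies eIF5A (58.7 and 56.0). At mTor the signal was higher in replicate 2. Of the 7, only pelo was in both replicate lists. eRF3, HBS1 and Thor were missing from that of replicate 2, mTor and Dhps from that of replicate 1, and mxt from both. None of the 6 genes listed as synthetase-associated or as missing the naming rule was bound. They include the 3 AIMP genes, and alpha-PheRS and beta-PheRS, which the cytosolic synthetase class leaves out by symbol only. None of the 8 mitochondrial factor genes was bound either. Lk6, the kinase gene for eIF4E, had a ranked region near a start site that reached 1054 in signal and 5 in −log10 global IDR, another of the 85 regions that are not in the conservative list.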

How the data were processed

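The only measurements were ChIP-seq peak files, whose build is dm6 per the labels. The authors deposited a conservative and a larger list thresholded by IDR, a list per replicate, and ranked regions. Each list derives from the alignments of 1 or both replicates, per the deposited file lists. The sources used here do not give the aligner or peak caller. Signal values were deposited by the authors on an unstated scale, and pooled signals are not comparable with those of single replicates. The IDR score, a whole number up to 1000, and the −log10 of the global IDR are also the authors' deposited values; the lowest score in the conservative list is 830. Chromatin was sheared to 200 to 800 bp, per the labels. No control library was analysed here, and read depth is unknown.

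Genes and TSSs came from Ensembl release 115 on the same assembly, and sequence from RefSeq; 99.8% of 30593 annotated start codons read ATG there. Each conservative peak was matched to its ranked row, and the replicate signals were read from each replicate's own ranked file at the region that row names. Replicate signals differed, so the samples were counted as 2. A divergent neighbour is a protein-coding gene on the opposite strand, transcribed away, with TSSs within 1 kb. Intervals are 95% Wilson intervals and cover counting error over genes or peaks only. No test between conditions was possible with 1 group, and none was run. Gene assignment was tested on simulated data. Python 3.11.15, NumPy 2.4.6 and SciPy 1.17.1 were used.

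The members, gene lists and words were chosen with earlier results of these data known. Named genes were every bound member, the 10 unbound members with the highest ranked signal, members bound in some lists only, genes that share a summit with a member, and bound genes of the other translation list; further unbound members and partners were named after their values were seen. Listed symbols SLIMP and Tor were matched as Slimp and mTor, and 4EHP is the member eIF4EHP.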

Additional observations from a re-analysis of the deposited data

How the results depend on the processing

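The count of bound members stayed within 1.5 times of 18 for the larger list (19), windows of 500 bp (16) and 2 kb (24), any base of the peak (20) and a global IDR of 0.001 (13), but fell to 11 when each summit counted only for its nearest TSS. The lists of single replicates gave 13 to 17. Of all protein-coding genes on the arms, 2109 were bound by the main rule. This count was 2418 for the larger list, 1802 with 500 bp, 2615 with 2 kb and 2188 for any base of the peak. It fell to 1481 with the nearest TSS only and to 1190 at a global IDR of 0.001. Bound initiation factor genes rose to 12 with 2 kb. Cytosolic synthetase genes fell from 7 to 3 with the nearest TSS and 4 at a global IDR of 0.001, and were 4 to 5 in the single replicates. LeuRS-m was lost with 500 bp and with the nearest TSS, leaving 0 mitochondrial genes. The median signal of member peaks was 169 in the conservative list. In the lists of replicates 1 and 2 it was 128 and 97.0, on the scale of 1 library and over the members each list reached. At the 19 conservative member peaks the medians were 128 in replicate 1 and 75.4 in replicate 2. Chosen after seeing the data, all ranked regions at the lowest score gave 20 members, and leaving out peaks that share a region, or adding alpha-PheRS, beta-PheRS and Slimp, gave 18. No paired analysis was possible because the study has 1 group.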

Other observations

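In eIF2B 1 of 5 genes was bound, in eIF3 3 of 16, and in the eIF2 and eIF4 groups 0 of 5 and 0 of 13. The 95% Wilson interval of each of these shares includes 15.1%, the share of all protein-coding genes, and differences between the groups were not tested. Of the 67 unbound members, 49 had a ranked region below the threshold as their strongest, with signals from 12.1 at LeuRS to 81.8 at eIF4G2 and a median of 34.9. For 15 of these the region had the lowest −log10 global IDR of the file, 0.0638. Another 16 had no ranked region within 1 kb. The paralogs eIF3d2, eIF3f2, eIF3g2 and eIF4E3 to eIF4E7 were not bound, and neither were eIF3d1, eIF3f1, eIF3g1 and eIF4E1.

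Peaks of the larger list lay near beta-PheRS, crc and pAbp, which had no conservative summit within 1 kb, and eRF1 was reached by the list of replicate 2 only.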
